A study of Mus musculus with 6 samples.

Results

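The nuclear genes of the mitochondrial respiratory chain and of ATP synthase were followed in natural killer (NK) cells with and without Runx3, a RUNX family transcription factor of cytotoxic lymphocytes. Members were taken by gene symbol, as those that begin with Nduf (complex I), Uqcr (complex III), Cox4, Cox5, Cox6, Cox7 or Cox8 (complex IV) or Atp5 (ATP synthase, complex V), together with Sdha, Sdhb, Sdhc and Sdhd (complex II) and Cyc1 (complex III). This gave 91 genes, read by 180 probe sets, of 18193 genes and 34945 probe sets with a single gene symbol on the array. A probe set is a group of short oligonucleotides that reads 1 transcript or a few related ones. The prefix Nduf also takes in Ndufaf1 to Ndufaf8, 8 genes whose products help to build complex I and are not subunits of it, and they are described apart from the 83 subunit genes. Ndufa4 and Ndufa4l2 carry complex I names and were placed with complex IV, where the Ndufa4 protein resides.

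NK cells came from spleens of ICR mice aged 6 weeks, 3 Runx3 -/- mice (Runx3-/- below) and 3 wild-type (WT) mice, with 1 array per mouse. The cells were enriched by negative selection, sorted for the surface antigen DX5 and not stimulated. The label for sex names both sexes for every sample, so the sex of a single mouse is not known here. The labels name no Cre or other restriction of the deletion to NK cells. Levels are log2 signals after GC-RMA, a method that corrects for background by base content and brings the arrays to a common scale, so that a difference of 1 is a 2-fold difference. A signal of log2 5 was used as the limit of detection.

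The respiratory chain passes electrons from NADH (complex I) and succinate (complex II) through ubiquinone, complex III, cytochrome c and complex IV to oxygen, and ATP synthase uses the resulting proton gradient to make ATP. A few core subunits are encoded by mitochondrial DNA, and all others, including every member described here, by nuclear genes. Resting NK cells have a low metabolic rate, and oxidative phosphorylation rises in them on activation by cytokines.

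In mean, 64 of the 83 subunit genes were lower in Runx3-/- than in WT NK cells, as were all 8 complex I assembly factor genes. Of the 9545 genes tested, 62.2% were lower in mean, and 0 members were called after adjustment over all these genes. The mean of the 91 members was 10.29 ± 0.08 (SD, n = 3) in Runx3-/- cells and 10.48 ± 0.24 in WT cells, a difference of -0.19, or 1.14-fold. Among the 83 subunit genes the difference was -0.15, and among the 8 assembly factors -0.55, or 1.47-fold. These samples are mixtures of cells, so fewer cells of a type and less RNA per cell cannot be told apart.

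The deleted gene was read first. The Runx3 probe set lay at 7.76, 8.51 and 8.68 in Runx3-/- replicates 1 to 3 and at 10.11, 11.56 and 10.73 in WT replicates 1 to 3, a 5.59-fold lower level with no overlap between the groups (limma adjusted p = 0.0565 over 9545 genes). Whether this probe set reads sequence removed by the deletion was not known. Of the 9 NK cell markers on the array, 9 were detected on all 6 arrays, and their summed signal ran from 17.31 to 17.46 in Runx3-/- samples and from 17.30 to 17.51 in WT samples, with 1 marker, Eomes, lower at the thresholds given below. The summed signal of basophil and mast cell markers was 14.49 to 15.30 against 12.87 to 13.08, with 8 of 9 markers higher at these thresholds. Cell cycle genes summed to 13.01 to 13.80 against 11.41 to 12.85, with 8 of 9 higher. B cell markers summed to 9.99 to 11.23 against 8.62 to 10.19, with 3 of 7 higher and Pax5 under log2 5 on all arrays, and macrophage markers to 8.90 to 13.06 against 10.74 to 11.18, with 2 of 7 higher and Fcgr1 under 5. The ranges of the summed T cell (Cd4 and Cd8a under 5), neutrophil (Elane under 5), erythroid (Alas2, Epor and Hba-a1 under 5) and plasmacytoid dendritic cell (Siglech, Ccr9 and Pacsin1 under 5) markers overlapped between the groups, with 1 of their genes, the neutrophil marker Camp, meeting the thresholds, lower. The log2 difference between the 3′ and 5′ control probe sets of Gapdh, a measure of how much of each transcript was copied, was 2.54, 2.16 and 2.29 in Runx3-/- replicates and 3.95, 4.38 and 1.96 in WT replicates. For Actb it was 1.23, 0.63 and 0.89 against 1.35, 2.60 and 1.01. The part of these differences in the results below was not tested.

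Of the 91 members, 80 were at log2 5 or more on all 6 arrays, 2 on only some arrays and 9 on none. The 82 members that reached log2 5 on at least 1 array were tested. By their mean over the arrays, 70 members lay at log2 9 or more and 19 at 13 or more, among the brightest signals on the array. A further 10 probe sets carried a member's symbol beside another, such as those of Ndufs5, Ndufs6, Ndufa11, Ndufb4 and Ndufab1 that also match a pseudogene or paralog, and were not counted as members. Their differences ran from -0.47 to -0.01.

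Each gene was compared between the 3 Runx3-/- and 3 WT arrays with limma. By the thresholds of the study, an unadjusted p under 0.05 and a change of at least 1.5-fold, 5 members were lower in Runx3-/- cells, namely Ndufaf1, Ndufaf4, Ndufaf6, Ndufaf7 and Ndufab1, and 0 were higher. Across all 9545 genes tested, 8.86% were lower and 4.89% higher by these thresholds, beside 6.10% of the tested members and 1.35% of the tested subunits lower. After Benjamini-Hochberg (BH) adjustment at 5% over all genes, limma called 0 members, with 5 at an unadjusted p under 0.05 and a smallest adjusted p of 0.207, whereas 0.608% of all genes tested were called. The groups did not overlap for 15 tested members that were lower on every Runx3-/- array, beside 16.8% of all genes tested, and for 1 that was higher, Cox7c, beside 5.98%. In mean, 72 of the 91 members were lower, 65 of them among the 82 tested (79.3%), and 62.2% of all genes tested were lower. The median difference was -0.19 over the 91 members and -0.13 over all genes tested. Leaving out 1 array at a time left 3 members lower at the thresholds without Runx3-/- replicate 1, 1 without replicate 2 and 3 without replicate 3, and 8, 2 and 1 without WT replicates 1, 2 and 3, with 2 higher (Uqcrh and Atp5g2) in the last case. Across all genes tested, 10.8%, 6.29% and 7.39% were lower without Runx3-/- replicates 1, 2 and 3. Without WT replicates 1, 2 and 3 these shares were 12.8%, 7.29% and 5.82%, with 4.37% higher in the last case. Of the 5 members named above, Ndufaf6 was called again in 5 of these 6 fits, Ndufaf1 in 4, Ndufaf7 in 2 and Ndufaf4 and Ndufab1 in 1 each. With each array centred on its median 3 members were lower, and with quantile normalization 1, Ndufaf6, beside 7.31% and 8.11% of all genes tested. A change of 1.5-fold or more, at any p, was seen in 7 tested members and in 21.4% of all genes tested.

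**Figure D1:**
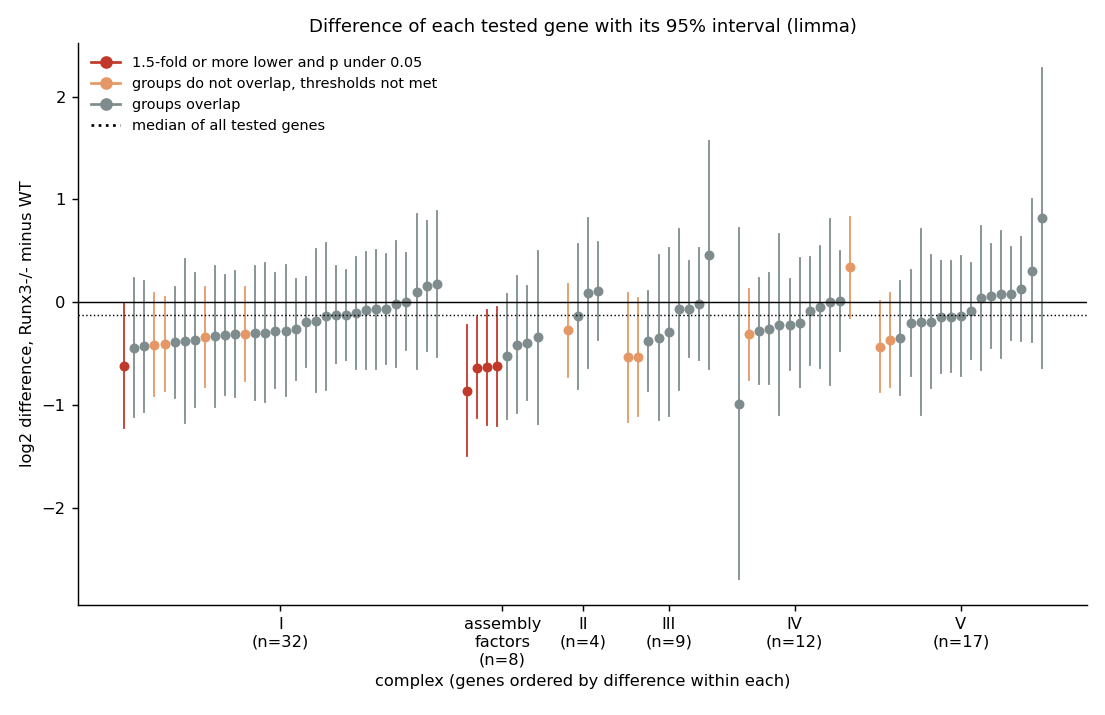
Log2 difference (Runx3-/- minus WT, y axis) of each of the 82 tested members by complex (x axis), with limma's 95% interval as a line. The 5 genes in red, 4 of them assembly factors, met the study's thresholds, and 65 of the 82 points lie below 0, with the median of all genes tested (-0.13) as a dotted line.

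The precision of 3 arrays against 3 bounds what could be seen. The median half-width of the 95% interval of a member was 0.58, and for 59 of the 82 tested members the interval lay within a 2-fold change in either direction. For 9 of them it lay within 1.5-fold. A 2-fold rise lay outside the interval of 79 members, whereas a 2-fold fall lay inside that of every assembly factor except Ndufaf5.

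The WT arrays differed among themselves more than the Runx3-/- arrays did. The mean over all members was 10.29, 10.21 and 10.37 in Runx3-/- replicates 1 to 3 and 10.20, 10.57 and 10.66 in WT replicates 1 to 3. WT replicate 1 was thus the lowest of the 6 arrays and the other two WT arrays the highest, so that the groups overlapped. WT replicate 1 was the lowest WT array for 68 of the 82 tested members (82.9%) and for 45.4% of all genes tested. The median SD of a tested member was 0.31 over WT arrays and 0.21 over Runx3-/- arrays. Without WT replicate 1 the difference of the 91-member mean was -0.33, and without WT replicate 3 it was -0.10. WT replicates 1 and 2 had the largest Gapdh 3′ to 5′ differences, and the part of this in the member mean was not tested.

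**Figure D2:**
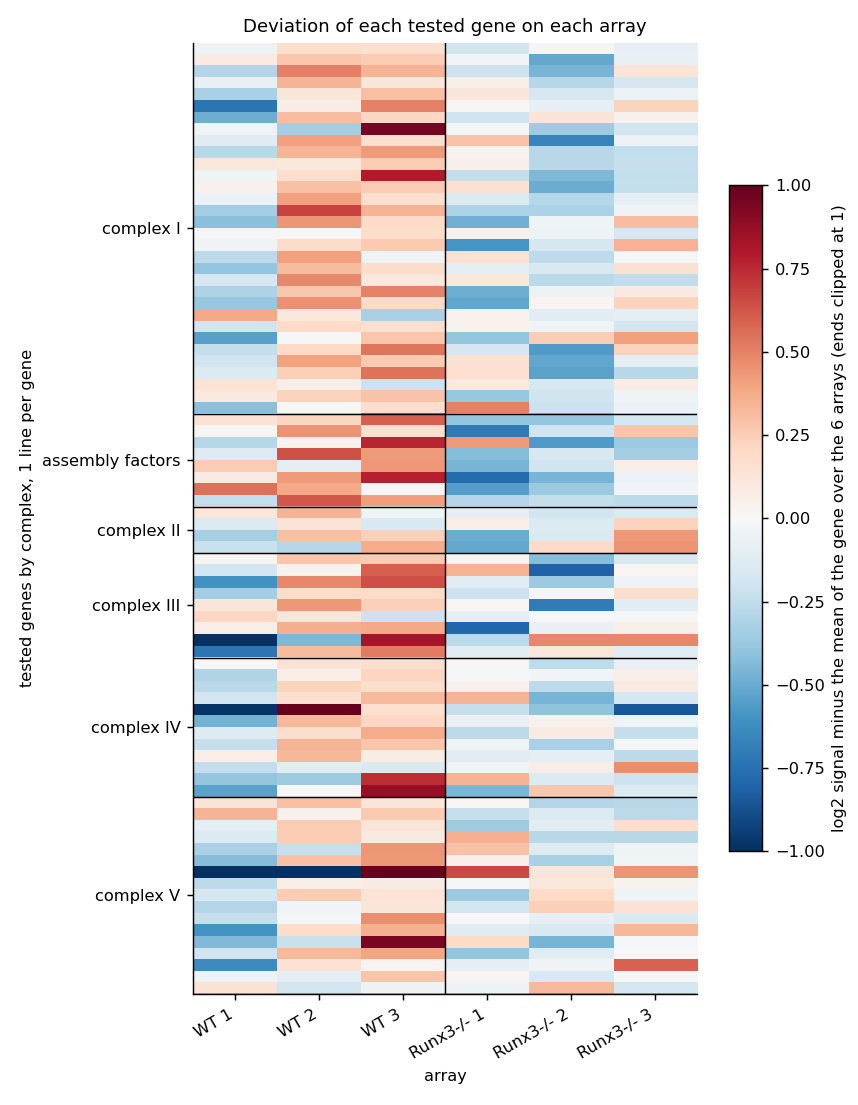
Each line is 1 of the 82 tested members and each column 1 array; colour gives the log2 signal minus the mean of that gene over the 6 arrays. The column of WT replicate 1 is mostly blue (below the gene's mean), and those of WT replicates 2 and 3 mostly red, with 68 of 82 members lowest in WT replicate 1 among the WT arrays.

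The largest and most uniform difference lay in the assembly factors of complex I, chaperones and enzymes that join its intermediates and leave before the complex is complete. Their mean was 7.85, 7.92 and 8.13 in Runx3-/- replicates 1 to 3 and 8.30, 8.58 and 8.69 in WT replicates 1 to 3. Every Runx3-/- array was below every WT array. All 8 genes were lower in mean, by -0.86 to -0.34, with a median of -0.57, and 4 of them met the thresholds. Of all genes tested 62.2% were lower in mean. The groups did not overlap for the 4 that met the thresholds, beside 16.8% of all genes tested that were lower on every Runx3-/- array. By their means 6 of the 8 lay between log2 7 and 9, a range in which the median difference of the 2780 genes tested was -0.18 and 12.6% were lower at the thresholds.

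The 5′ flanks of 4 of the 5 members that met the thresholds, all but Ndufaf6, are shown to give the sequence upstream of the genes that were lower in cells without a RUNX factor. The windows hold the 250 bases before the RefSeq transcription start on the gene's strand (assembly GRCm38.p6). Ndufaf1 is on the minus strand at chr2:119662835-119663084, Ndufaf4 on the plus strand at chr4:24897833-24898082, Ndufaf7 on the plus strand at chr17:78936885-78937134 and Ndufab1 on the minus strand at chr7:122101849-122102098. Capitals mark matches on either strand to the RUNX motif (TGTGGT or TGTGGC or TGCGGT or TGCGGC), to the NRF1 motif GCGCATGC or to the ETS motif CCGGAAG, both known from promoters of respiratory genes.
Ndufaf1: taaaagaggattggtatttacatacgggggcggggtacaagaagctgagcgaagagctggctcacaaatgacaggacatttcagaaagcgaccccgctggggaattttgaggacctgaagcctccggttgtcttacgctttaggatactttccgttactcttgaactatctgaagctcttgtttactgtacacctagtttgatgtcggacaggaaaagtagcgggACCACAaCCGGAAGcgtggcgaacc
Ndufaf4: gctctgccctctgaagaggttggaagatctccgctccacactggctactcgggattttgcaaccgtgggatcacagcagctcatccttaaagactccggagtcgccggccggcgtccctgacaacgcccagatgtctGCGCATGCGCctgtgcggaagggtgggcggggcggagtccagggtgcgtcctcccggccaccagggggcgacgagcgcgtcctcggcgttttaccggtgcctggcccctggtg
Ndufaf7: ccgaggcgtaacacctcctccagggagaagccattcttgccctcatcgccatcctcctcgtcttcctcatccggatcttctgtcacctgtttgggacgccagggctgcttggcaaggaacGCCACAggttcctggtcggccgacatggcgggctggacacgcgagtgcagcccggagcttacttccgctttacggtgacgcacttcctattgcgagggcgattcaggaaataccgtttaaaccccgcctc
Ndufab1: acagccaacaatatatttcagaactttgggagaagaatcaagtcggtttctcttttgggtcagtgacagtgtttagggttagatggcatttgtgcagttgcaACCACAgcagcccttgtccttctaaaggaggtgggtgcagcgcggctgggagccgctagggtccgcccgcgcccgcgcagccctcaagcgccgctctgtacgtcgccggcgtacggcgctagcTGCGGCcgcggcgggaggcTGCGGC

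The Ndufaf1 window held 1 RUNX match, which began 25 bases before the start, and 1 ETS match 18 bases before it. The Ndufaf4 window held 2 NRF1 matches, on opposite strands and overlapping, and 0 RUNX matches, Ndufaf7 1 RUNX match and Ndufab1 3. Matches to different motifs shared no base in these windows. Of the 79 windows found for 74 members, 45.6% held a RUNX match, compared with 37.95% of all 32851 windows in the table. An NRF1 match was in 10.1% of member windows and 2.26% of all windows, an ETS match in 17.7% and 6.91%, and a match to the YY1 motif AAGATGGC in 1.27% and 1.56%. Median GC content was 57.6% in member windows and 52.4% in all windows, and the shares were not adjusted for it. Binding of Runx3 to these windows was not measured on these arrays. The study mapped Runx3 binding in resting NK cells by sequencing the bound DNA, and those data were not read here.

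Ndufaf1, which binds the membrane arm intermediate of complex I with Acad9 and Ecsit, was at 8.51, 8.52 and 8.72 in Runx3-/- replicates and at 9.05, 9.12 and 9.50 in WT replicates. The groups did not overlap, and the level was 1.55-fold lower (-0.64, SE 0.21; limma adjusted p = 0.218).

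Ndufaf6, an early assembly factor related to phytoene and squalene synthases, was at 5.85, 6.15 and 6.56 against 6.70, 7.04 and 7.40. It had the largest difference of the 8 genes and no overlap, at 1.81-fold lower (-0.86, SE 0.27; limma adjusted p = 0.207).

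Ndufaf7, a mitochondrial methyltransferase, was at 7.83, 8.02 and 8.36 against 8.94, 8.77 and 8.40. Runx3-/- replicate 3 and WT replicate 3 lay close together, without overlap, and the level was 1.55-fold lower (-0.63, SE 0.24; limma adjusted p = 0.266).

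Ndufaf4, which acts with Ndufaf3 on the ubiquinone-binding arm, was at 8.30, 8.57 and 8.40 against 8.61, 9.37 and 9.16. WT replicate 1 lay just above the highest Runx3-/- array, and the level was 1.54-fold lower (-0.62, SE 0.25; limma adjusted p = 0.289). A second Ndufaf4 probe set overlapped between the groups, with a difference of -0.30.

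The other 4 assembly factors did not meet the thresholds. Ndufaf8, the partner of the hydroxylase Ndufaf5, was at 10.41, 10.46 and 10.43 in Runx3-/- replicates and at 10.45, 11.32 and 11.11 in WT replicates, a difference of -0.53 (limma adjusted p = 0.361). Its WT replicate 1 fell among the Runx3-/- arrays and the other two WT arrays lay well above them. The differences were -0.41 for Ndufaf2, a late-stage chaperone, -0.39 for Ndufaf5 and -0.34 for Ndufaf3, each with overlapping groups.

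**Figure D3:**
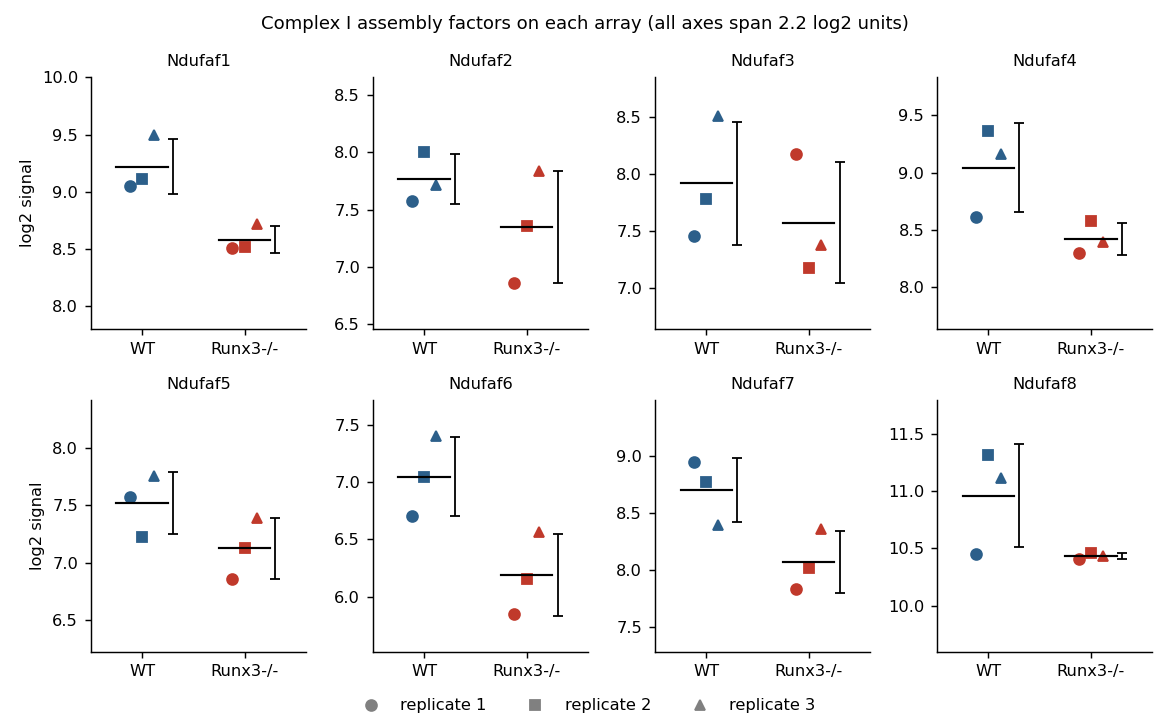
Log2 signal (y axis) of Ndufaf1 to Ndufaf8 on each WT (blue) and Runx3-/- (red) array, with the group mean as a line and its SD as a bar (n = 3 each). The groups do not overlap for Ndufaf1, Ndufaf4, Ndufaf6 and Ndufaf7, and all 8 means are lower in Runx3-/- cells. Of all genes tested, 16.8% were lower on every Runx3-/- array and 62.2% were lower in mean.

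Among the 34 subunit genes of complex I, which oxidises NADH, 30 were lower in mean and 4 higher. Their mean level was 10.95, 10.80 and 11.01 in Runx3-/- replicates and 10.86, 11.26 and 11.28 in WT replicates. WT replicate 1 lay among the Runx3-/- arrays, and the difference was -0.21 (-0.35 without WT replicate 1) with a median of -0.27. Of the 32 tested, 1 met the thresholds and 5 (15.6%) were lower on every Runx3-/- array, beside 16.8% of all genes tested.

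The 1 was Ndufab1, the mitochondrial acyl carrier protein, which serves complex I as well as mitochondrial fatty acid and iron-sulfur cluster synthesis. Its brightest probe set was at 10.29, 10.08 and 10.29 against 10.48, 10.71 and 11.32, without overlap and 1.54-fold lower (-0.62, SE 0.26; limma adjusted p = 0.306). A second probe set was at 7.13, 5.94 and 6.14 against 8.02, 7.73 and 8.31, also without overlap and 3.06-fold lower (-1.62). A probe set shared with the pseudogene Ndufab1-ps showed -0.47 and overlapping groups, and how far the pseudogene contributes to the Ndufab1 signals is not known here.

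The other complex I subunits without overlap were Ndufa9 (-0.31), Ndufa10 (-0.41) and Ndufb11 (-0.34), accessory subunits, and Ndufv2 (-0.41), a core iron-sulfur subunit of the NADH-binding arm. Ndufv2 was at 11.46, 11.64 and 11.81 in Runx3-/- replicates and 11.94, 12.07 and 12.13 in WT replicates without overlap. The core subunits otherwise gave -0.43 for Ndufs8, -0.31 for Ndufs7, -0.12 for Ndufs3, -0.11 for Ndufs1 and 0.01 for Ndufv1, which holds the NADH-binding site, all with overlapping groups. Ndufb2, an accessory subunit, differed by -0.44 with overlap. Ndufs4, an accessory subunit of the NADH-binding arm, gave 0.18 in its brightest probe set, while dimmer ones detected on all arrays gave -0.18 and -0.59. A further dim probe set, under log2 5 on Runx3-/- replicate 2, gave -1.20 and met the thresholds when every probe set was counted. The direction of Ndufs4 is thus not settled. Ndufb1 and Ndufb4 were under log2 5 on every array, although probe sets shared by Ndufb4 and its paralogs reached 11.87.

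**Figure D4:**
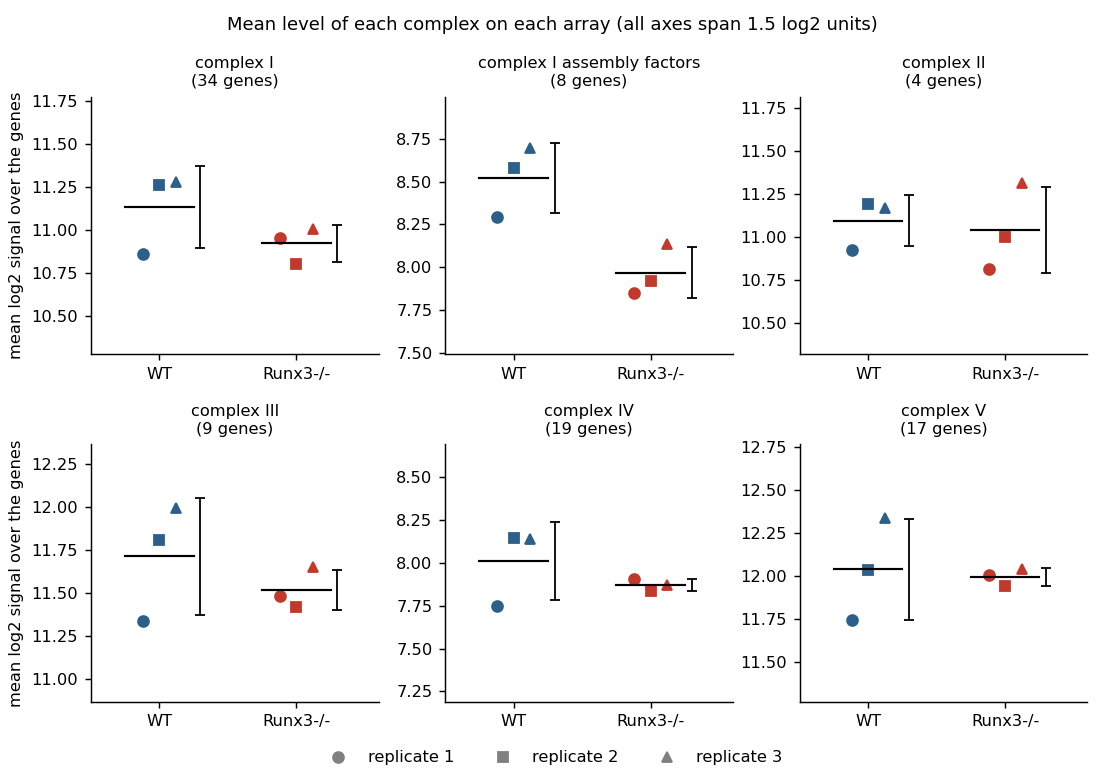
Mean log2 signal over the genes of each complex (y axis; every panel spans 1.5 units) on each WT (blue) and Runx3-/- (red) array, with group means as lines and SDs as bars (n = 3 each). The groups are apart for the assembly factors and overlap for complexes I to V, where WT replicate 1 lies lowest or second lowest of the 6 arrays.

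Complex II, succinate dehydrogenase, showed no common direction. Its 4 genes averaged 10.81, 10.996 and 11.31 in Runx3-/- replicates and 10.92, 11.19 and 11.17 in WT replicates, with overlap, and the difference of -0.05 became 0.03 after quantile normalization and 0.06 without Runx3-/- replicate 1. The flavoprotein Sdha was lower on every Runx3-/- array, at 11.80, 11.69 and 11.74 against 11.99, 12.22 and 11.83, a difference of -0.27 that did not meet the thresholds (limma adjusted p = 0.515). The iron-sulfur subunit Sdhb gave 0.11, and the membrane anchors Sdhc and Sdhd gave -0.14 and 0.09, all with overlap.

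Complex III carries electrons from ubiquinol to cytochrome c. Of its 9 genes 8 were lower in mean, 0 met the thresholds and the mean differed by -0.20 (-0.39 without WT replicate 1 and -0.06 without WT replicate 3), with Runx3-/- replicates at 11.48, 11.42 and 11.65 and WT replicates at 11.34, 11.81 and 11.998. The groups did not overlap for 2 genes (22.2%), both lower on every Runx3-/- array, beside 16.8% of all genes tested. Uqcrfs1, the Rieske iron-sulfur protein, was at 10.99, 11.70 and 11.83 against 11.85, 12.14 and 12.15, a difference of -0.54 (limma adjusted p = 0.373). Uqcrc1, a core structural subunit, was at 12.35, 11.64 and 12.23 against 12.46, 12.77 and 12.58, a difference of -0.53 (limma adjusted p = 0.342). For Uqcrfs1 the first and for Uqcrc1 the second Runx3-/- array lay well below the other two. Cytochrome c1 (Cyc1) gave -0.38 and Uqcrc2 -0.07, with overlap. Uqcrh, the hinge protein, was the 1 gene with a higher mean, at 11.06, 11.82 and 11.81 against 10.27, 10.88 and 12.16. Its WT arrays spanned more than its Runx3-/- arrays, and the difference of 0.46 had a 95% interval from -0.65 to 1.57.

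Complex IV, cytochrome c oxidase, reduces oxygen. Its 19 genes differed by -0.14 in mean (-0.27 without WT replicate 1), with Runx3-/- replicates at 7.91, 7.84 and 7.87 and WT replicates at 7.75, 8.15 and 8.14. The median of the 19 differences was -0.09, and the mean took in isoforms under the limit of detection, described below. The Runx3-/- arrays lay close together between WT replicate 1 and the other two WT arrays. Of the 12 genes tested 0 met the thresholds, and 1 (8.33%) was lower on every Runx3-/- array, beside 16.8% of all genes tested. Cox7a2l, which joins complexes III and IV in supercomplexes, was at 13.31, 13.31 and 13.15 against 13.48, 13.74 and 13.48, without overlap, a difference of -0.31 (limma adjusted p = 0.4499). Cox7c was the 1 gene higher on every Runx3-/- array, at 5.14, 5.24 and 5.64 against 4.93, 5.06 and 5.03, close to the limit of detection, a difference of 0.34 (limma adjusted p = 0.455).

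The widely expressed subunits Cox4i1 (-0.22), Cox5a (0.01), Cox5b (-0.09), Cox6a1 (-0.20), Cox6b1 (-0.05), Cox6c (-0.28), Cox7a2 (-0.26) and Ndufa4 (-0.22) overlapped between the groups, as did Cox8a (0.00). Each of the 8 isoforms known for restricted tissues (Cox4i2, Cox6a2, Cox6b2, Cox7a1, Cox7b2, Cox8b, Cox8c and Ndufa4l2) was under log2 5 on all arrays except Cox6a2, an isoform of heart and skeletal muscle. Cox6a2 was at 2.71, 2.53 and 2.08 in Runx3-/- replicates and at 1.95, 5.23 and 3.10 in WT replicates. Only WT replicate 2 was above log2 5, and no fold is given. With these 7 untested isoforms and Cox6a2 in its mean, the level of complex IV is not comparable with that of the other complexes. The complex I mean likewise took in Ndufb1 and Ndufb4, under log2 5 on every array. Cox6a2 had the largest difference of the complex IV genes, so the lower complex IV mean rests in part on values under log2 5.

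Complex V, ATP synthase, differed by -0.04 in mean, which became 0.02 after quantile normalization and 0.11 without WT replicate 3. Its 17 genes averaged 12.004, 11.94 and 12.04 in Runx3-/- replicates and 11.74, 12.03 and 12.34 in WT replicates, with 10 genes lower in mean and 7 higher. The groups did not overlap for the alpha and beta subunits of the catalytic F1 part. These were 2 of the 17 genes (11.8%), beside 16.8% of all genes tested that were lower on every Runx3-/- array. Atp5b, the beta subunit, was at 12.91, 12.99 and 12.87 against 13.48, 13.19 and 13.40, a 1.35-fold lower mean (-0.43, SE 0.19; limma adjusted p = 0.316). Atp5a1, the alpha subunit, was at 13.71, 13.39 and 13.41 against 13.82, 13.99 and 13.81 (-0.37), while its 2 other probe sets overlapped between the groups and gave -0.09 and -0.73. Both are thus lower in every Runx3-/- array by less than 1.5-fold in the brightest probe set. The gamma subunit Atp5c1 gave -0.20 in its brightest probe set and 0.87 in a dim one (5.87, 5.88 and 6.03 against 5.80, 4.54 and 4.82), so its direction depends on the probe set.

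The 3 genes for subunit c, whose mature proteins are identical, differed in direction. Atp5g1 gave -0.19 and Atp5g3 gave 0.08. Atp5g2 was at 11.02, 10.49 and 10.81 in Runx3-/- replicates and at 8.996, 9.31 and 11.57 in WT replicates. Its WT arrays were split, with 2 below and 1 above all Runx3-/- arrays, and the difference of 0.82 had a 95% interval from -0.64 to 2.28 (limma adjusted p = 0.541). Of the peripheral and membrane subunits, Atp5md differed by -0.35 and Atp5mpl by 0.31, with overlap in both.

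Where a gene had several probe sets, most agreed in sign. Of the 40 members with more than 1 probe set at log2 5 or more on all arrays, 12 had probe sets of opposite sign, of which 11 were within 1.5-fold of each other and 1, Ndufs4, was not. Probe sets of Ndufab1 and Atp5a1 were also over 1.5-fold apart, with the same sign. Over all 140 member probe sets at log2 5 or more on all arrays, 113 were lower in mean, 22 were lower on every Runx3-/- array and 0 were higher on every one. Counted by gene, 62.2% of all genes tested were lower in mean. On every Runx3-/- array 16.8% of them were lower and 5.98% higher. Shares over all probe sets are not given here.

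Genes that build, feed and maintain the respiratory chain but lie outside the symbol rule were read from lists written for the purpose, and BH adjustment at 5% called 0 of them in limma. At the study's thresholds 18 of the 156 tested were lower (11.5%, beside 8.86% of all genes tested) and 1 higher, with 11 lower when Runx3-/- replicate 2 or WT replicate 3 was left out and 32 without WT replicate 1. In these fits 6.29%, 5.82% and 12.8% of all genes tested were lower, in that order. Of 45 further assembly factors on the array 42 were lower in mean, with a median of -0.35, and 3 of the 43 tested (6.98%) met the thresholds, all lower. Nubpl, which delivers iron-sulfur clusters to complex I, was at 7.05, 7.55 and 8.17 in Runx3-/- replicates and at 8.25, 8.83 and 8.52 in WT replicates, a difference of -0.94 (limma adjusted p = 0.226). The other two, Coa6 (-0.82) and Sco2 (-0.65), serve the copper sites of complex IV. No overlap was seen for Nubpl and Coa6, whereas Runx3-/- replicate 1 reached above WT replicate 1 for Sco2.

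The 22 electron carriers and genes that make or feed ubiquinone had a median of -0.41, and 8 of the 20 tested (40.0%) met the thresholds, all lower. Of all genes tested 8.86% were lower at the thresholds, with 11.4% of those under log2 7 and 12.6% of those between 7 and 9. Among the 8, Coq4 had overlapping groups and reached log2 5 on only 3 arrays. Prodh, proline dehydrogenase, which passes electrons from proline to ubiquinone, was at 5.63, 4.90 and 5.16 against 6.45, 7.09 and 7.49. It had the largest difference of these lists, with no overlap, at least 3.36-fold lower (limma adjusted p = 0.0672). Dhodh, which links pyrimidine synthesis to ubiquinone, was at 7.42, 7.60 and 7.44 against 8.04, 8.51 and 8.73, without overlap and 1.92-fold lower (-0.94, limma adjusted p = 0.139). Coq3 (-0.73) and Coq6 (-0.79), enzymes of ubiquinone synthesis, also did not overlap. Cytochrome c (Cycs) gave -0.14 with overlap.

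**Figure D5:**
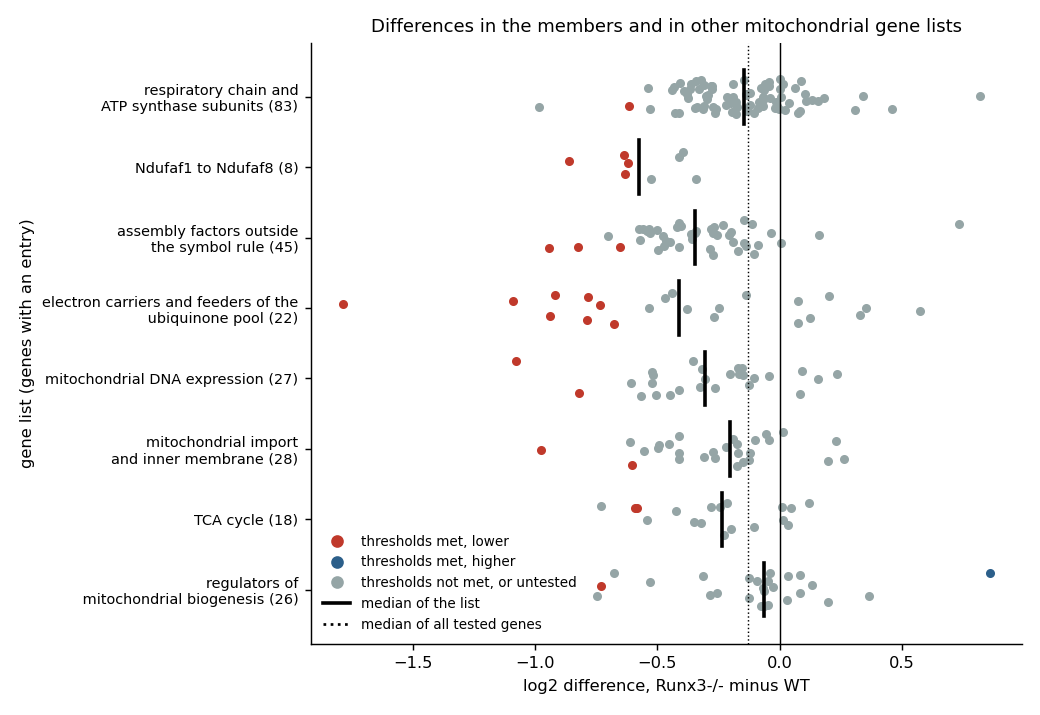
Log2 difference (x axis) of each gene with an entry on the array, for the subunits, for Ndufaf1 to Ndufaf8 and for 6 other mitochondrial lists (y axis, with the number of genes). The median bar of the subunits (-0.15) lies near the dotted median of all genes tested. Those of Ndufaf1 to Ndufaf8 (-0.57), of the ubiquinone list (-0.41) and of the other assembly factors (-0.35) lie furthest to its left. The bars for mitochondrial DNA expression (-0.31), the TCA cycle (-0.24) and import (-0.21) also lie to its left, and that of the regulators (-0.06) to its right.

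In the 4 remaining lists with more than 1 gene tested, the share lower at the thresholds ran from 5.0% to 11.8%, beside 8.86% of all genes tested. Of the 27 genes for replication, transcription and maintenance of mitochondrial DNA, 2 met the thresholds, the helicase Twnk (-1.08) and the RNA polymerase Polrmt (-0.82), both lower, and the list had a median of -0.31. Of 28 genes for import and the inner membrane 2 were lower, the import chaperone Timm8a1 (-0.98) and the ADP/ATP carrier Slc25a4 (-0.60), with a median of -0.21. Of the 17 tested genes of the TCA cycle 2 were lower, the succinyl-CoA ligase subunits Suclg1 (-0.59) and Suclg2 (-0.59), with a median of -0.24. With each array centred on its median Polrmt, Slc25a4, Suclg1, Suclg2 and Sco2 no longer met the thresholds, and 13 genes of all lists were lower. Over all alternatives run for them, Slc25a4 lost its call in 10 of 17, Polrmt in 9 of 17, Sco2 in 9 of 16 and Suclg2 in 8 of 17. Among 20 tested regulators of mitochondrial biogenesis Pprc1, a coactivator of the PGC-1 family, was lower (-0.73) and Cebpb, a transcription factor, higher (0.86), with a median of -0.06 over the 26 on the array. The factors named for the motifs above overlapped between the groups, with 0.13 for Nrf1, 0.03 for Gabpa, an ETS factor, and -0.13 for Yy1. The coactivator Ppargc1a was under log2 5 on every array. Of the 13 subunits encoded by mitochondrial DNA only mt-Nd5 was on the array, at 12.27, 11.73 and 11.72 against 12.14, 12.10 and 11.16, with overlap.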

How the data were processed

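The authors processed the scanner files with GC-RMA in Partek and deposited 45101 log2 values per array, 1 for each probe set, from 6 arrays (the submitters' processing notes name both without a version). GC-RMA brings arrays to a common scale, so a change in total RNA per cell is not seen. The deposited values did not share 1 distribution, and quantile normalization moved the median difference of all genes tested from -0.13 to -0.08. Gene symbols came from GEO's platform annotation, in which 932 probe sets had several symbols and 9160 had none listed. Of several probe sets of a gene, the one with the brightest average over all arrays stood for it. No source used here states the study's background level, and genes that reached log2 5 on at least 1 array, 9545 in all, were tested. Arrays were compared with limma 3.58.1 (lmFit, eBayes) in R 4.3.3 with no covariate, as the study names none, and p-values were adjusted by Benjamini-Hochberg over all genes tested. Differences are Runx3-/- minus WT, with 95% intervals from the fit. Where an array of the lower group was under log2 5, all values under 5 were set to 5 and the fold written as "at least". The mean over members and over each complex, which took in every member, was described without a test. The number of arrays limits the precision.

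The members, the gene lists and the thresholds were chosen with earlier results of these data known. The genes named were Runx3; members at the thresholds; the 3 members of each complex with the largest difference; catalytic and core subunits; pairs of isoforms; members whose probe sets disagreed; and up to 4 genes at the thresholds in each other list. Members named beside these, among them those whose groups did not overlap, the remaining assembly factors, Ndufs3, Atp5g1, Atp5g3, Atp5md, Atp5mpl, Cox7c, Cycs and the regulators, were added after their values were seen. Simulated arrays with 200 changed genes were used to test the fit. Promoter windows are those of RefSeq on GRCm38.p6. Figures were drawn with matplotlib 3.10.9. Alternatives covered the filter, normalization, choice of probe set, moderation, array weights, a replicate block and leaving out each array.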

Additional observations from a re-analysis of the deposited data

How the results depend on the processing

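The lower mean of the 8 assembly factors kept its sign in all 13 alternatives (-0.67 to -0.38), as did that of all members (-0.33 to -0.10). The sign turned in some alternatives for complexes II, IV and V (complex IV at 0.00 with the median over genes), and the complex III difference became -0.51 with the median over genes. The 5 members lower at the thresholds became 3 with median centring, with the mean of all probe sets, with values under log2 5 raised to 5 and with the plain equal-variance test, and 1 with quantile normalization. Of all genes tested, 7.31% were lower with median centring and 7.12% with the mean of all probe sets. With quantile normalization 8.11% were lower. With raised values no gene was left out by the filter, and 3.34% of 18193 genes were lower, a share not comparable with the others. No share over all genes is given for the equal-variance test. Array weights gave 8 lower, 4 of them among the 5 (Ndufaf7 was lost, and Cox6a2, Ndufaf8, Ndufb2 and Uqcrc1 were added). With these weights 12.7% of all genes tested were lower. Leaving out 1 array gave 1 to 8 lower and 0 to 2 higher, beside 5.82% to 12.8% and 4.05% to 7.09% of all genes tested. Removing _x_at and _s_at probe sets gave 4 lower (without Ndufaf7), counting every probe set gave 6 (with Ndufs4), and both gave 1 higher member, Atp5c1. Of all genes 9.09% were lower and 4.97% higher in the former, and of all probe sets 7.66% and 5.19% in the latter. No alternative called a member at BH 5%. In the other mitochondrial lists 18 lower genes became 11 with values raised to 5 and 11 to 32 when 1 array was left out, and 1 higher gene became 0 without the filter or with values raised to 5 and 0 to 1 when 1 array was left out. With a replicate block, in which equally numbered arrays were paired, 3 members were lower at the thresholds, beside 8.63% of all genes tested. In that fit 0 of all genes passed BH 5%. The correlations of equally numbered arrays (0.07, -0.19 and 0.15) gave no pairing. The cause of these changes was not tested.

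Several members turned sign, most of them near 0. With median centring Uqcrb was 0.022. With quantile normalization Cox8a was -0.053, Ndufb7 0.0041 and Uqcrb 0.082. With the mean of all probe sets Sdhc was 0.0073, Ndufv1 -0.15, Sdhd -0.032, Cox5a -0.072, Cox5b 0.011, Atp5c1 0.34, Cox6a1 0.033, Cox8a -0.042, Atp5k -0.070, Ndufs4 -0.45 and Uqcrb 0.18. Without _x_at and _s_at probe sets Cox5b was 0.074, Atp5c1 0.87, Cox8a -0.13, Atp5k -0.079 and Ndufc2 0.046. With array weights Ndufv1 was -0.017, Cox5a -0.028, Cox8a -0.0098 and Atp5k -0.024. Leaving out 1 array gave -0.25 to 0.23 for Atp5k, -0.14 to 0.12 for Cox5a, -0.24 to 0.022 for Cox5b, -0.29 to 0.11 for Cox6b1, -0.19 to 0.37 for Cox8a, -0.54 to 0.16 for Ndufa4, -0.23 to 0.11 for Ndufb7, -0.41 to 0.039 for Ndufc2, -0.30 to 0.057 for Ndufs1, -0.047 to 0.42 for Ndufs4, -0.10 to 0.086 for Ndufv1, -0.39 to 0.077 for Sdhc, -0.12 to 0.36 for Sdhd, -0.19 to 0.087 for Uqcrb and -0.19 to 0.016 for Uqcrc2.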
